A study of Mus musculus with 4 samples.

Results

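The genes described here are 9 mouse genes that write, erase or read DNA methylation: the methyltransferase genes Dnmt1, Dnmt3a and Dnmt3b, the dioxygenase genes Tet1, Tet2 and Tet3, and the methyl-CpG reader genes Mbd1, Mbd2 and Zbtb33. They were taken by gene name from the deposited tables, where all 9 are present in both tables among 19150 genes shared by them. They were selected on function and on the KO over WT values of these same 4 libraries, which were already known, so the fold changes and p-values of that comparison are given as a description and support nothing further. The libraries are of brain from C57BL/6 embryos at E13.5, 2 labelled knockout (KO2 and KO4) and 2 labelled wild type (WT6 and WT8), and the title of the series gives the deletion as that of macroH2A, a histone H2A variant with a large extra domain. The labels do not say which macroH2A gene or which allele was deleted, whether the deletion was confined to a cell type, or whether each library came from 1 embryo or a pool. The authors compared KO2 with WT6 in one table and KO4 with WT8 in the other.

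DNA methylation in mammals is the addition of a methyl group to cytosine, mostly where it precedes guanine (a CpG site). DNMT1 copies the pattern onto the new strand after replication, DNMT3A and DNMT3B set new marks, and the TET enzymes oxidise the methyl group as a step towards its removal. Proteins such as MBD1, MBD2 and Kaiso, the product of Zbtb33, bind methylated CpG sites and bring repressive complexes to them. In the developing brain the dividing progenitors need maintenance of the pattern, while neurons gain further marks, set largely by DNMT3A, as they mature.

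Total counts per library were between 16470090 and 18136745. H2afy, which encodes macroH2A1, had 74.6 and 69.2 CPM in the KO libraries against 322 and 350 CPM in the WT libraries. Its log2 fold change of KO over WT was -2.22 (SE 0.10, adjusted p = 0.00167 by edgeR's quasi-likelihood test), and without WT6 it was -2.29 (adjusted p = 0.314), while that of H2afy2 (macroH2A2) was 0.08. CPM, or counts per 1e6 reads, is the read count relative to library size, here scaled by TMM. The neuronal tubulin gene Tubb3 had 3009 and 2789 CPM in KO and 2838 and 3442 CPM in WT, and all 6 brain genes listed for the check were present in every library. Xist, the noncoding RNA made by the inactive X chromosome, had 8105 reads in KO4 and 6094 in WT8, but 6 in KO2 and 19 in WT6, and the listed Y-linked genes summed to 2 reads in each of KO4 and WT8, but to 2439 in KO2 and 1820 in WT6. Each genotype thus has 1 female and 1 male library, and sex cannot be told apart from the deposited pair. Nothing in the labels says whether the samples were separate litters, so p-values measure only the spread between these samples, and within each genotype that spread includes the difference between a male and a female library.

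None of the 9 genes passed the test between KO and WT brains, and Zbtb33 stood furthest from equal levels. Its transcript was 1.51 times as high in KO as in WT, Dnmt3b, Tet2, Tet1 and Mbd1 had higher means in KO by 1.10 to 1.23 times, and Dnmt1, Dnmt3a, Tet3 and Mbd2 stood at 0.969 to 1.02 times the WT level. Fewer cells of a type and less RNA per cell cannot be told apart in RNA of a tissue. With the edgeR quasi-likelihood test over 15708 genes, 0 of the 9 had an adjusted p under 0.05, with values of 0.743 to 0.951, and 1 (Zbtb33) had an unadjusted p under 0.05. Over all genes tested, 0.00637% were called with the adjusted p and 4.70% had an unadjusted p under 0.05. DESeq2, which called 0.0255% of genes, called 0 of the 9, and so did limma-voom. For 4 of the 9 (Zbtb33, Tet2, Dnmt3b and Tet1) each KO library exceeded each WT library, where 20.1% of all genes did so, and for 0 of the 9 each was lower, where 19.4% did. The median log2 fold change of the 9 was 0.14, beside -0.01 over all genes tested. In the plot of levels in each library, Dnmt1 and Dnmt3b stand far further apart than the genotypes do for any of the 9 genes. Tet1, Tet2 and Zbtb33 lie close together, with mean levels in KO of 24.83, 29.03 and 23.99 CPM. Their WT means were 22.44, 23.98 and 15.92 CPM, so these genes do not differ from each other far more than the genotypes do. The plotted CPM are not divided by length of transcript.

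**Figure D1:**
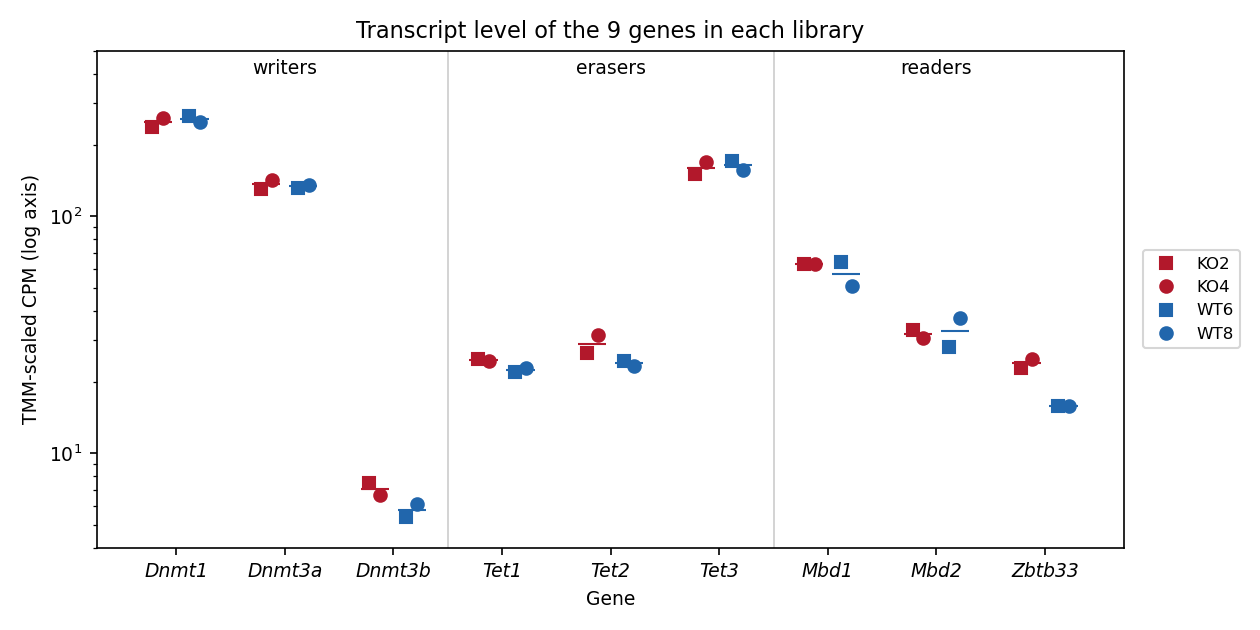
Level of each gene in the 4 libraries, as TMM-scaled CPM on a log axis, with KO libraries in red left of WT libraries in blue, squares for the male libraries KO2 and WT6, circles for the female libraries KO4 and WT8, and a line at each genotype's mean. Both KO points lie above both WT points for Zbtb33, Tet2, Dnmt3b and Tet1, and Dnmt1 is the highest and Dnmt3b the lowest gene in every library.

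The start regions of the 4 genes whose genotypes did not overlap are printed here because their CpG sites are the substrate of the enzymes described. Each is a RefSeq window on GRCm38.p6 of 250 bases before to 50 bases after an annotated start, written 5′ to 3′ along the gene, with CpG sites in capitals. The windows lie at chrX:38189543-38189842 on the plus strand for Zbtb33, chr3:133544341-133544640 on the minus strand for Tet2, chr2:153649199-153649498 on the plus strand for Dnmt3b and chr10:62887275-62887574 on the minus strand for Tet1. Those of Tet1 and Tet2 lie inside the annotated locus, at a start downstream of its outermost end.
Zbtb33: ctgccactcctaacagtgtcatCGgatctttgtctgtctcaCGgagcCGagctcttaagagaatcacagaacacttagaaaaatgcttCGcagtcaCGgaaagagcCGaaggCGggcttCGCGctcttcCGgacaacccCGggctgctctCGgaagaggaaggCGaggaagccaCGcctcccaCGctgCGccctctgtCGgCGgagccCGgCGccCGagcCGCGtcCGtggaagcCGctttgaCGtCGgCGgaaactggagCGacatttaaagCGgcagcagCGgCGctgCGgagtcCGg
Tet2: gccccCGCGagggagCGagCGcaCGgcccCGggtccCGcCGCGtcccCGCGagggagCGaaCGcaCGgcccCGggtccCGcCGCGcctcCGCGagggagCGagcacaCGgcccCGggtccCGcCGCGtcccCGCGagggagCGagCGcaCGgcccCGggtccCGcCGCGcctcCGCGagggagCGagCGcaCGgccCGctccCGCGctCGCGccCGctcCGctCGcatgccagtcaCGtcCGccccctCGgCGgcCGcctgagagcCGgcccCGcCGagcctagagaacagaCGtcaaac
Dnmt3b: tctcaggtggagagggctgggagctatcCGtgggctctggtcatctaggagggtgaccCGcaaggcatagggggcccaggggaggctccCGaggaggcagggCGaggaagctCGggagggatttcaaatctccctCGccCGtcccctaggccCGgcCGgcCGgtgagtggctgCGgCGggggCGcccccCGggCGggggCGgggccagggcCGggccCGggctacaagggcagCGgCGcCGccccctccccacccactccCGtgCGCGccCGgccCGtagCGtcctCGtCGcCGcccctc
Tet1: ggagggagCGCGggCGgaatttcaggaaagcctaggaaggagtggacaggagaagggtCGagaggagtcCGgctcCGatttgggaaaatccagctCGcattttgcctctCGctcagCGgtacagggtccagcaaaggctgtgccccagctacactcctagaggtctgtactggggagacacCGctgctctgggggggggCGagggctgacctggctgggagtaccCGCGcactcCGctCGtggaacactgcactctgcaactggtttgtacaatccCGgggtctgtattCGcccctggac

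These windows are rich in CpG sites compared with all RefSeq promoter windows. That background includes genes not tested here, and the windows of tested genes alone were not compared. The Zbtb33 window has 34 CpG sites, the Tet2 window 57, the Dnmt3b window 30 and the Tet1 window 17, where the median of all 32851 windows in the table is 7. In relation to what its bases would give at random, the Zbtb33 window holds 1.15 times and the Tet2 window 1.17 times as many CpG sites, and the median window 0.384 times. A total of 11 windows matched 7 of the 9 genes, without Mbd1 and Mbd2, and 9 of the 11 had at least 15 CpG sites, as 34.6% of all windows did. The 2 others belong to Dnmt1, which has 3 windows with 2, 12 and 33 CpG sites. The one with 2 starts at the annotated end of the gene locus that lies furthest upstream, and the one with 33 lies inside the locus at chr9:20952574-20952873. Dnmt1 is known to use separate starts in oocytes and in somatic cells, and counts per gene do not separate them. The letters CGCG, a form of the paired CpG that Kaiso binds when methylated, occur in 10 of the 11 windows and in 38.0% of all windows. They are the same on both strands and are made of CpG sites, so this count follows CpG content. The Dnmt3a windows at chr12:3806730-3807029 and chr12:3806910-3807209 overlap. Letters in the shared stretch are counted in both, so the 11 windows are not separate units. The letters TCCTGCNA, the sequence that Kaiso is known to bind without methylation, were searched on both strands and occur in 0 of the 11 windows and in 4.96% of all windows. A match is a description of the letters, and the methylation of these windows was not measured.

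**Figure D2:**
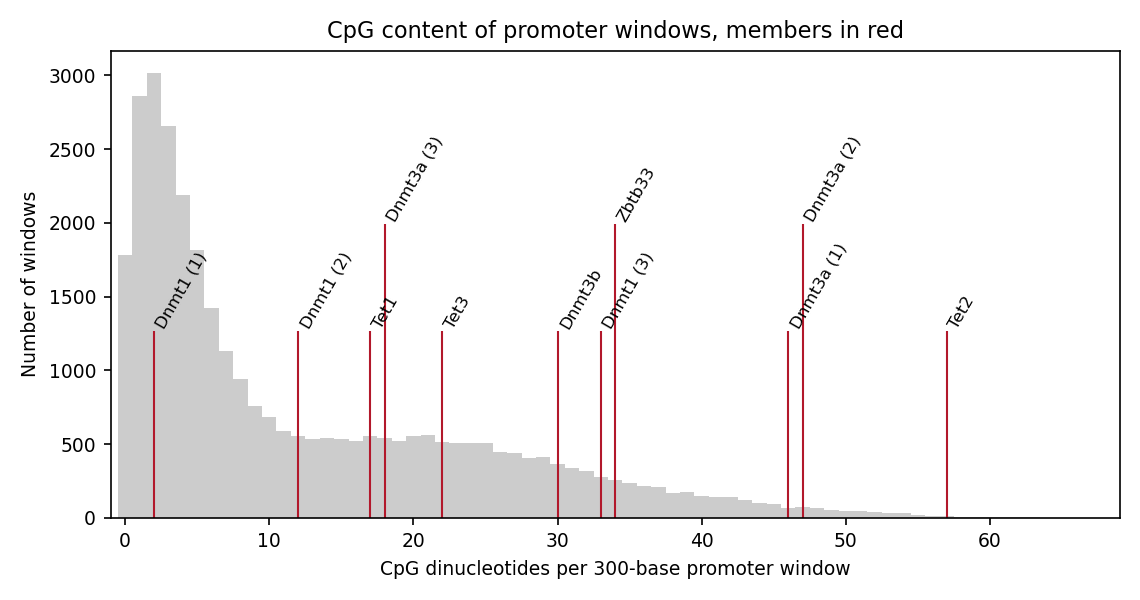
Number of CpG sites per 300-base RefSeq promoter window (horizontal axis) against the number of windows with that many sites (grey bars, 32851 windows), with red lines at the 11 windows of 7 of the genes and window numbers in brackets where a gene has several. The windows of Zbtb33 and Tet2 have 34 and 57 sites, far right of the median of 7, and the first Dnmt1 window has 2.

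Among the writers, Dnmt1 was the most abundant and Dnmt3b the least, and the 95% interval of the fold held 1 for each of the 3. Dnmt1 (ENSMUSG00000004099, chromosome 9, 20907209 to 20959888, minus strand), the maintenance methyltransferase gene, had 239 and 261 CPM in KO2 and KO4 and 265 and 251 CPM in WT6 and WT8. The genotypes overlap, with the highest and the 2nd lowest library both WT. Its log2 fold change was -0.05 (SE 0.09), and the 95% interval of the fold ran from 0.834 to 1.13. Dnmt3a (ENSMUSG00000020661, chromosome 12, 3806007 to 3914443, plus strand), the main de novo enzyme gene of neural tissue, had 131 and 142 CPM in KO2 and KO4 and 132 and 136 CPM in WT6 and WT8. KO libraries were both the lowest and the highest, the log2 fold change was 0.03 (SE 0.09), and the fold lay between 0.884 and 1.18. A stretch of 133 exonic bases is shared with the antisense gene Dnmt3aos. Dnmt3b (ENSMUSG00000027478, chromosome 2, 153649450 to 153687730, plus strand), the de novo enzyme gene best known from the early embryo, had 137 and 123 reads in KO against 93 and 98 in WT, or 7.48 and 6.71 CPM in KO against 5.41 and 6.14 CPM in WT. The genotypes did not overlap, yet the log2 fold change of 0.30 had an SE of 0.19, where counting alone would give 0.14, and the 95% interval of the fold ran from 0.901 to 1.68. All 3 genes had an edgeR adjusted p between 0.743 and 0.938.

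Per length of transcript the order of the writers was the same in every library. Dnmt1 averaged 33.9 ± 2.05 CPM per kilobase of merged exons in KO and 34.9 ± 1.35 in WT (SD, n = 2 each), Dnmt3a 8.21 ± 0.48 in KO and 8.06 ± 0.15 in WT, and Dnmt3b 1.39 ± 0.11 in KO and 1.13 ± 0.10 in WT. Dnmt1 lay above 89.0% of tested genes on this scale, Dnmt3a above 62.2% and Dnmt3b above 24.2%. Of the summed level of the 3 writers per kilobase, Dnmt1 gave 77.6% and 78.2% in KO2 and KO4 against 79.9% and 78.4% in WT6 and WT8. Dnmt3a gave 18.9% in both KO libraries against 17.7% and 18.8% in WT, and Dnmt3b 3.51% and 2.91% in KO against 2.36% and 2.77% in WT. Dnmt1 thus made up between 77.6% and 79.9% of the writers in every library. The small Dnmt3b share was higher in each KO library than in each WT library, as was its CPM, and this was not tested.

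Among the erasers, Tet3 was the main transcript, and Tet1 and Tet2 were above both WT libraries in each KO library without passing the test. Tet1 (ENSMUSG00000047146, chromosome 10, 62804570 to 62908996, minus strand) encodes the enzyme best known from embryonic stem cells and germ cells. It had 25.1 and 24.56 CPM in KO2 and KO4 against 22.03 and 22.86 CPM in WT6 and WT8. The step between the genotypes was larger than the spread within either, at a log2 fold change of 0.15 (SE 0.11), and the 95% interval of the fold ran from 0.915 to 1.34. Tet2 (ENSMUSG00000040943, chromosome 3, 133463679 to 133545139, minus strand), which encodes the family member without a DNA-binding CXXC domain of its own, had 26.6 and 31.5 CPM in KO2 and KO4 against 24.5 and 23.5 CPM in WT6 and WT8. KO4 stood apart as the highest and KO2 lay only 1.09-fold above WT6. The log2 fold change was 0.28 (SE 0.13, edgeR unadjusted p = 0.0708, adjusted p = 0.743). It was 0.15 without KO4 and 0.40 without KO2, and from all 4 libraries the fold lay between 0.979 and 1.497. A stretch of 43 exonic bases is shared with an antisense gene, Gm42567. Tet3 (ENSMUSG00000034832, chromosome 6, 83362373 to 83459084, minus strand), the family member prominent in zygotes and in neural tissue, had 151 and 169 CPM in KO2 and KO4 and 171 and 157 CPM in WT6 and WT8. The highest and the 2nd lowest values were WT, and the log2 fold change was -0.04 (SE 0.10), with a fold between 0.8285 and 1.15.

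Tet3 made up most of the eraser level in every library. Its share was smaller in each KO library than in each WT library, while its own CPM overlapped between the genotypes. Per kilobase of merged exons Tet3 gave 73.8% and 74.6% of the summed eraser level in KO2 and KO4 against 78.1% and 76.7% in WT6 and WT8. Tet2 gave 12.9% and 13.7% in KO against 11% and 11.3% in WT, and Tet1 13.3% and 11.7% in KO against 10.8% and 12% in WT. The genotypes do not overlap in the shares of Tet3 and Tet2 and overlap in that of Tet1, and these shares were not tested. They are parts of 1 sum, so the Tet3 share falls where Tet1 and Tet2 are higher and is no separate result. In CPM, 39.4% of all tested genes did not overlap in either direction. Tet1 and Tet2 averaged 1.61 ± 0.0246 and 1.72 ± 0.21 CPM per kilobase in KO and 1.45 ± 0.0378 and 1.42 ± 0.0415 in WT (SD, n = 2 each), so their order is not separated by the spread in either genotype. With the longest transcript in place of merged exons Tet2 had 2.89 CPM per kilobase over all libraries against 1.645 for Tet1, because its merged exons are 16870 bases and its longest transcript 9179 bases. Over all 9 genes the order per kilobase of merged exons was Dnmt1, Mbd2, Tet3, Mbd1, Dnmt3a, Zbtb33, Tet2, Tet1 and Dnmt3b. Mbd2, Tet3 and Mbd1 are neighbours that the spread between libraries does not separate, nor does it separate Mbd1 from Dnmt3a in WT. Dnmt1 and Zbtb33 each stand apart from their neighbours in every library. Dnmt3b lies below Tet1 within each library, but its KO2 value of 1.464 exceeds that of Tet1 in WT6, 1.425. With the longest transcript the 2 genes nearly meet in KO2, at 1.73 for Dnmt3b and 1.747 for Tet1.

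**Figure D3:**
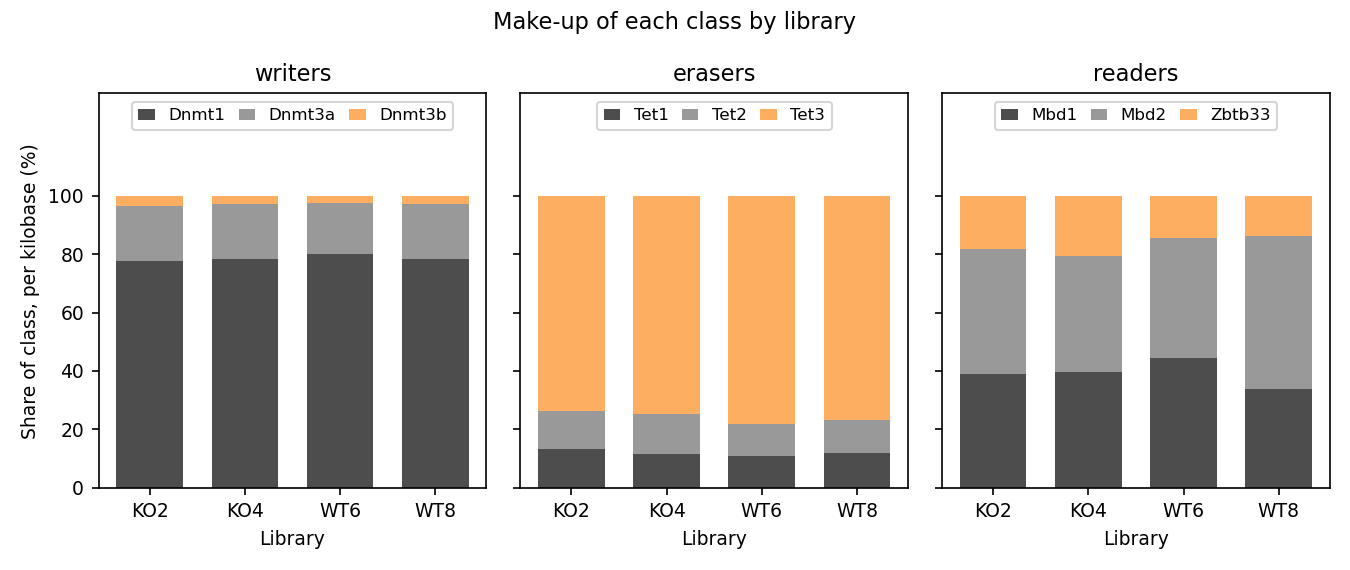
Share of each gene in the summed level of its class per kilobase of merged exons (vertical axis, percent), for KO2 and KO4 left of WT6 and WT8, with writers, erasers and readers in separate panels. Dnmt1 makes up 77.6% to 79.9% of the writers and Tet3 73.8% to 78.1% of the erasers, and the Zbtb33 share of the readers is 18.4% and 20.6% in KO against 14.5% and 13.9% in WT.

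Among the readers, Zbtb33 had the largest fold between genotypes. Zbtb33 (ENSMUSG00000048047, chromosome X, 38189793 to 38197046, plus strand) encodes Kaiso, a zinc finger protein with a BTB domain that binds paired methylated CpG sites and partners with p120 catenin. Its read counts were 419 and 460 in the KO libraries against 274 and 254 in the WT libraries. This is 22.9 and 25.1 CPM in KO against 15.9 CPM in each WT library, or 23.99 ± 1.59 CPM in KO and 15.9 ± 0.0154 CPM in WT (SD, n = 2 each). The WT libraries are close to identical and every KO library is higher. Counts of 274 and 254 reads would usually differ more after scaling, so with n = 2 the WT SD understates the spread. The log2 fold change was 0.59 (SE 0.13), and the 95% interval of the fold, which is not corrected for the number of genes, ran from 1.22 to 1.86. Its unadjusted edgeR p was 0.00259, which put it at place 8 among 15708 genes. The adjusted p was 0.743 in edgeR, 0.744 in limma-voom and 0.9998 in DESeq2.

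Zbtb33 was higher in KO in both pairs. KO over WT was 1.44-fold in the male pair (KO2 over WT6) and 1.58-fold in the female pair (KO4 over WT8), and WT8 over WT6 differed by -0.0020 on the log2 scale. The gene lies on the X chromosome, and each genotype holds 1 library of each sex. It shares 474 of its 5122 exonic bases with Tmem255a, a gene on the opposite strand. Whether strand entered the counting is not known from the labels or files, which leaves reads over those bases, and over the antisense overlaps of Dnmt3a and Tet2, uncertain. Tmem255a had 99 and 54 reads in KO2 and KO4 and 27 and 99 reads in WT6 and WT8, with a log2 fold change of 0.11 (SE 0.59), and its part in the Zbtb33 counts was not tested. In the authors' deposited tables Zbtb33 had a log2 fold change of 0.53 (adjusted p = 2.82e-05) for KO2 over WT6 and 0.72 (adjusted p = 4.87e-10) for KO4 over WT8, each from 1 library per genotype by a test whose name the labels and files do not give.

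Mbd1 and Mbd2 varied more within WT than between the genotypes. Mbd1 (ENSMUSG00000024561, chromosome 18, 74267605 to 74282732, plus strand), whose protein has both an MBD and CXXC domains, had 63.2 CPM in both KO libraries against 64.2 in WT6 and 50.7 in WT8. The higher KO mean therefore rests on the single low library WT8, with a log2 fold change of 0.14 (SE 0.12) and a fold between 0.898 and 1.34. Mbd2 (ENSMUSG00000024513, chromosome 18, 70568189 to 70626131, plus strand), which encodes the methyl-CpG-binding subunit of a NuRD repressor complex, had 33.2 and 30.6 CPM in KO2 and KO4, and 28.2 and 37.4 CPM in WT6 and WT8. Both KO libraries lie between the WT libraries, and the log2 fold change was -0.04 (SE 0.15), with a fold between 0.758 and 1.25. WT8 was also the library with the most erythroid RNA, where the 7 listed erythroid genes summed to 577 and 576 CPM in KO2 and KO4 and to 442 and 996 CPM in WT6 and WT8, and the part of this in the Mbd1 and Mbd2 values was not tested. Per kilobase of merged exons the readers averaged 9.42 ± 0.0036 for Mbd1, 9.93 ± 0.57 for Mbd2 and 4.68 ± 0.31 for Zbtb33 in KO, and 8.57 ± 1.43, 10.2 ± 2.04 and 3.11 ± 0.0030 in WT, so Mbd1 and Mbd2 are not separated by their spread and Zbtb33 lies below both.

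Within the pairs, 5 of the 9 genes had opposite signs, as 50.1% of all tested genes did. Dnmt1, Tet3, Dnmt3a and Mbd1 were lower in KO2 than in WT6 and higher in KO4 than in WT8, while Mbd2 was higher in KO2 than in WT6 and lower in KO4 than in WT8. In KO2 over WT6 5 of the 9 genes were above 1, and in KO4 over WT8 8 of the 9 were. The share of all genes above 1 in each pair was not computed, so these counts cannot be read as a trait of the 9. The authors' deposited table for KO2 over WT6 gave 4 of the 9 genes an adjusted p under 0.05, beside 17.3% of all genes in it. Of these 2 were higher (8.58% of all genes) and 2 lower (8.67%) in KO2. The authors' deposited table for KO4 over WT8 did so for 7 of the 9, beside 39.0% of all genes. Of these 6 were higher (23.8% of all genes) and 1 lower (15.2%) in KO4. Zbtb33 passed in both of the authors' tables with the same sign, and Dnmt1, Tet3 and Mbd2 passed in both with opposite signs. None of the 9 carried the authors' own yes or no mark as a yes, which 1.86% and 5.05% of genes did in the authors' deposited tables of the male pair and the female pair, in that order. Reads of 1 library against another compare those libraries and not the genotypes, and the plot of fold changes sets these pair values beside the intervals from all 4 libraries.

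**Figure D4:**
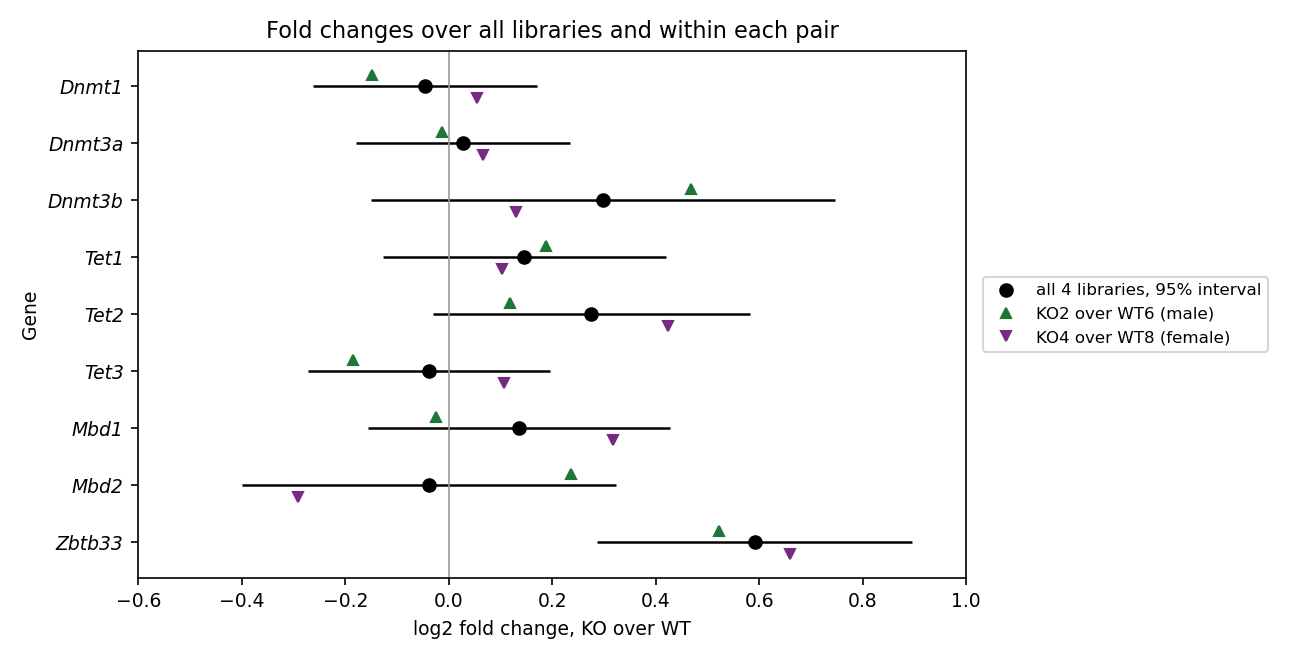
Log2 fold change of KO over WT for each gene (horizontal axis), with black points and lines for the edgeR estimate and 95% interval from all 4 libraries, green triangles for KO2 over WT6 and purple triangles for KO4 over WT8. The interval of Zbtb33 is 0.29 to 0.90 and does not reach 0, those of the other 8 genes do, and the triangles of Mbd2 stand at 0.24 and -0.29.

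How firmly each fold can be read depends on depth and, more often, on the spread between libraries. For Dnmt1, with 4005 to 4772 reads per library, counting alone would give an SE of 0.0217 on the log2 scale, against the fitted 0.09. For Zbtb33 counting gives 0.08 against the fitted 0.13, and for Dnmt3b 0.14 against 0.19. Counting is thus the larger part of the error for Dnmt3b and a small part of it for Dnmt1.

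Among the 9 genes, patterns over the 4 libraries were most alike for Dnmt1 and Tet3. The root mean square distance of their log2 CPM, each centred on its mean over the 4 libraries, was 0.0227, and it was 0.06 for Dnmt1 and Dnmt3a. Mbd2 and Zbtb33 were the least alike, at 0.35. Of the 10055 tested genes that averaged 10 CPM or more, those most like Zbtb33 by this measure were Hnrnpab (distance 0.05), Ntn4 (0.06) and Isoc1 (0.08). Hnrnpab had 378 and 406 CPM in KO and 271 and 245 CPM in WT. These are distances over 4 libraries only, with no test.

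Other genes of the pathway were read from lists, and 0 of their members passed the edgeR test (adjusted p of at least 0.743). The maintenance list holds genes for maintenance factors and their relatives. It had 7 of 7 tested members above 0 at a median log2 fold change of 0.09, where 48.9% of all genes were above 0. In 5 of the 7 the genotypes did not overlap and KO was the higher, as in 20.1% of all genes. Hells, a remodelling factor needed for normal methylation, had 39.6 and 42.7 CPM in KO2 and KO4 against 35.2 and 33.1 CPM in WT6 and WT8 (log2 fold change 0.27, SE 0.10). Cdca7l stood at 0.48 (SE 0.26), and Uhrf1, which brings DNMT1 to hemimethylated sites, at 0.06 (SE 0.09). Division genes among the progenitor markers stood in the same direction, Mki67 at 0.18 with 180 and 198 CPM in KO against 169 and 166 CPM in WT, and Top2a at 0.18. The whole list of 9 cycling progenitor markers had 4 above 0 and summed to 2568 and 2451 CPM in KO2 and KO4 and 2510 and 2690 CPM in WT6 and WT8, and its part in the values of the maintenance genes was not tested.

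Other readers and the genes of removal were mixed in direction. Of 7 other readers 5 were above 0 at a median of 0.08, with Mbd5 at 0.24 (SE 0.14). Mbd3, the NuRD subunit gene related to Mbd2, was like Mbd2 highest in WT8, with 347 and 329 CPM in KO and 338 and 419 CPM in WT. Of 10 tested genes of removal and repair 5 were above 0. The glycosylase gene Neil2 stood at -0.62 (SE 0.27) on 35 and 37 reads in KO against 47 and 53 in WT, and the X-linked gene Ogt, whose enzyme binds TET proteins, at 0.20 (SE 0.10). Tdg, the glycosylase that removes the oxidised bases made by TET enzymes, stood at 0.09 (SE 0.12).

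Partners of the readers were more often below 0 than above. Of 18 reader partners 6 were above 0 and 12 below, at a median of -0.08, with the NuRD subunit gene Gatad2a at -0.25 (SE 0.08) and the histone chaperone gene Rbbp4 at 0.30 (SE 0.12). Ctnnd1, which encodes the Kaiso partner p120 catenin, had 43.7 and 39.4 CPM in KO and 40.2 and 47.1 CPM in WT, and the corepressor gene Ncor1 stood at 0.09. Of 7 genes for CXXC readers of unmethylated CpG 3 were above 0, with Cxxc5 at -0.23 (SE 0.11) and Cxxc1 at -0.12 (SE 0.08). Of 9 genes that supply the methyl donor 7 were above 0 at a median of 0.05, with Mat2a, which makes S-adenosylmethionine, at 0.16 (SE 0.11) and the serine hydroxymethyltransferase gene Shmt2 at -0.27 (SE 0.08).

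Germline genes that promoter methylation is known to hold silent in somatic tissue were scarce in both genotypes. Of the 16 listed, 7 had a value in both tables and 2 held enough reads to be tested. Ddx4, the germ cell helicase gene, had 32 and 18 reads in KO2 and KO4 against 20 and 9 in WT6 and WT8, and Brdt, a testis bromodomain gene, had 62 and 91 reads in KO against 68 and 50 in WT. The genotypes overlap for Ddx4 and for Brdt, with log2 fold changes of 0.65 (SE 0.50) and 0.23 (SE 0.28) and edgeR adjusted p of 0.755 and 0.818. Of the 5 with too few reads to test, Dazl had 5 and 6 reads in KO against 2 and 4 in WT, Sycp3 had 7 and 8 in KO against 3 and 5 in WT, and Taf7l had 4 and 4 in KO against 2 and 1 in WT. Slc25a31 had 1 and 6 reads in KO against 1 and 2 in WT, and Piwil1 had 1 and 4 in KO against 6 and 1 in WT. The genotypes overlap for Slc25a31 and Piwil1. For the other 3 genes each KO library exceeded each WT library, but on 1 to 8 reads per library. The share of 20.1% is of tested genes, which do not include these 3, and no share was computed for genes with so few reads. A difference in any of the 5 was not detectable at this depth.

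Among markers of other cell types 0 passed the test. The 3 most abundant of the microglia list were Csf1r, with 9.11 and 7.31 CPM in KO and 7.96 and 9.83 CPM in WT, C1qb at a log2 fold change of -0.28 and C1qa at -0.52, and the 6 tested members summed to 28.3 and 25.5 CPM in KO and 28.2 and 34.8 CPM in WT. Ptprc, a gene of white blood cells in the microglia list, had 1 to 5 reads per library. Endothelial genes, led by Cldn5, Kdr and Pecam1, summed to 108 and 106 CPM in KO and 108 and 116 CPM in WT. Neuronal markers had 5 of 8 above 0 and summed to 5417 and 5167 CPM in KO2 and KO4 and 5126 and 5655 CPM in WT6 and WT8. Erythroid genes were led by Hba-a1, Hbb-y and Hba-x, and all 3 were highest in WT8. The Hba genes have near-identical copies, so the split of reads between them is uncertain. The part of these cells in the values of the 9 genes was not tested.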

How the data were processed

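RNA was extracted with Trizol from brains at E13.5 and sequenced, per the labels' protocols. Build mm9 and the tools HTSeq 0.6.0, TopHat2 2.0.12 and Bowtie2 2.2.3 are listed, without roles, per the submitters' processing notes. Positions in the tables equalled GENCODE M21 on GRCm38 for 91.4% and 91.5% of genes and for all 9 genes described, so that build was used. The authors deposited whole-number counts, not normalized, per the file headers and values. Beside them the authors deposited CPM, in which a 0 count takes what 0.5 read would give (a reading of the values, since no header says so). The deposited linear fold (ratio), its log2 and the p-value of each pair are the authors', per the file headers.

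Counts of 19150 genes in both tables were joined by identifier. The main test was edgeR 4.0.16 (R 4.3.3), quasi-likelihood, genotype as the only term, TMM, filterByExpr (15708 genes kept) and Benjamini-Hochberg adjustment over them at 0.05. The SE is the log2 fold over the root of F, and intervals are at 95%. Alternatives used DESeq2 1.42.0 and limma 3.58.1. The fit was tested on simulated counts. Lengths came from GENCODE M21 and matched 15687 tested genes. Promoter windows came from RefSeq on GRCm38.p6, 32851 windows of 300 bases. Genes to be named were the 9, H2afy and H2afy2, Xist and Y-linked genes, the 2 of each list with the smallest p, the 3 most abundant markers of other cell types and the 3 genes most like Zbtb33. Any other gene was named after its values were seen, and some genes under the rule are not reported here. The members and lists were chosen with earlier results of these data known. The labels give the genotypes no shared replicate numbers, so the deposited pair served as a term in an alternative only.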

Additional observations from a re-analysis of the deposited data

Results flagged for a closer look

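For 5 of the 9 genes the difference of KO from WT had opposite signs in the female pair (KO4 and WT8) and the male pair (KO2 and WT6), which is what drew attention to them. With 1 library of each genotype per sex the difference between the pairs was not tested, and 50.1% of all tested genes show opposite signs. On the log2 scale Mbd2 stood at -0.2904 in the female pair and 0.2371 in the male pair. Tet3 stood at 0.1069 in the female and -0.1848 in the male pair, Dnmt1 at 0.0545 and -0.1475, Mbd1 at 0.3179 and -0.0237, and Dnmt3a at 0.0665 and -0.0136, each with the female pair given before the male. Sex and the deposited pair cannot be told apart here.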

How the results depend on the processing

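Of 116 results for the folds of the 9 genes under 13 alternatives, 108 kept the sign of the reported value, 8 took the opposite sign and 0 passed an adjusted p of 0.05. Most alternatives refit the same 4 libraries, and the pair and sex terms are the same fit, so these results are not independent. Dnmt1, Dnmt3a, Tet3, Mbd1 and Mbd2 each changed sign in a fit that left out 1 library. Dnmt3b, at a mean under 10 CPM, had 12 alternatives. Zbtb33 stayed between 0.52 and 0.66, with an adjusted p from 0.0801 (without WT8) to 0.9998 (DESeq2). Scaling by total count alone put Mbd2 at 0.0011. Over the fits that leave out 1 library the log2 fold ran from -0.1097 to 0.0216 for Dnmt1, -0.0339 to 0.0924 for Dnmt3a, -0.1257 to 0.0511 for Tet3, -0.0198 to 0.3166 for Mbd1 and -0.2318 to 0.1835 for Mbd2. It ran from 0.15 (without KO4) to 0.40 (without KO2) for Tet2. These fits hold 1 library of a genotype, assumed to vary like the other genotype. Over all genes 1 was called, lower in KO and 0 higher. The count was 2 lower with total count alone, 2 lower with the deposited pair or the sex as a term, which are the same fit, and 4 with DESeq2, 2 higher and 2 lower. Leaving out 1 library gave 0 to 104 calls, 0 to 67 higher and 0 to 37 lower, with 104 without WT8, 0 without WT6 and 2 without KO4, and the cause was not tested. Without WT6 the adjusted p of H2afy was 0.314 at a log2 fold of -2.29. The count of 4 genes with KO above WT without overlap was also 4 with total count alone, a setting chosen after seeing the data. Leaving out 1 library makes that rule easier to meet for any gene, so such settings cannot show whether the count is stable. With the longest transcript as length, levels per kilobase of 8 genes moved beyond their spread, and Tet3 and Mbd1 changed places in the order. Of the 9 genes Dnmt3b has the fewest reads.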
